A study of Mus musculus with 4 samples.

Results

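S100 proteins are small calcium-binding proteins with paired EF-hand motifs, and most of their genes lie side by side at the edge of the epidermal differentiation complex. Here 10 S100 genes, S100a3, S100a4, S100a6, S100a8, S100a9, S100a10, S100a11, S100a13, S100a14 and S100a16, were followed across 4 arrays of mouse epidermis. A gene was taken where the platform annotation gave a probe set (a group of probes read as 1 value) that single symbol, and where several did, the brightest on average stood for it. The members are 10 of 19938 named genes and of 17 S100 family genes with a value. The probe sets were chosen by their mean log2 level over all 4 arrays, and the genes were selected with results of these arrays known, so the values below describe the members and give no independent support to any pattern.

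The arrays compared mice that overexpress noggin, an extracellular antagonist of bone morphogenetic proteins, with mice that overexpress BMP4, one of those proteins. Both transgenes were driven by the K14 promoter, which is active in basal keratinocytes. Epidermis was laser-captured as 8 to 10 strips per animal from glabrous (hairless) hindpaw skin, and RNA of 3 animals was pooled per array, giving 2 noggin arrays and 2 BMP4 arrays from 6 animals of each line. Strain, age and sex are not given in the sources used here. Skin without either transgene was not analysed here. Every difference is noggin minus BMP4 on the log2 scale, and the spread is between pools of animals.

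In epidermis the family spans several roles. S100a8 and S100a9 together form calprotectin, an alarmin that binds zinc and manganese, signals through TLR4 and RAGE, is induced in stressed keratinocytes and is very abundant in neutrophils. S100a3 is a cysteine-rich protein of the hair cuticle, while S100a10 and S100a11 bind annexins, and S100a4 and S100a6 bind myosin and other intracellular partners.

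Keratinocyte markers were bright and had similar sums in both lines. The summed linear intensity of 11 keratinocyte markers was 64324 and 63994 in the noggin arrays and 64546 and 63930 in the BMP4 arrays, while the median difference was -0.02. Krt14, a basal keratin, differed by -0.14, Lor, the envelope protein loricrin, by 0.10, and Krt9, a keratin of palm and sole epidermis, had log2 values of 13.39 and 13.29 in noggin and 13.44 and 13.28 in BMP4. BMP4 replicate 1 stood apart from the other arrays. Over all named genes (genes are no replicates) it correlated with the others at r of 0.985, 0.985 and 0.989, the last with BMP4 replicate 2. The remaining array pairs had r between 0.992 and 0.993. The highest, 0.9932, was between noggin replicate 1 and BMP4 replicate 2, above the 0.9925 of the noggin pair, so the arrays did not group by line. In bulk epidermis, fewer cells of a type and less RNA per cell cannot be told apart.

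Of the 10 genes, S100a8 and S100a9 were much higher in noggin epidermis, S100a3 was much lower, and the other 7 differed by at most 0.26 log2 units. None of the 10 passed limma's test at an adjusted p of 0.05, and 0 of 35556 probe sets did (0%). At an unadjusted p below 0.05, limma gave 4 of the 10, S100a3, S100a8, S100a9 and S100a13, against 854 of 19938 named genes (4.28%). The group means lay at least 1 log2 unit apart in 3 of the 10, against 0.577% of named genes. The groups did not overlap in 5 of the 10, against 33.6% of named genes: the noggin arrays were above in 4 (15.7% of named genes) and below in 1 (17.9%). They were separated by at least 1 log2 unit between nearest arrays in 3 of the 10, against 0.105% of named genes. The smallest two-sided p that an exact permutation test allows with 2 arrays against 2 is 0.333.

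**Figure D1:**
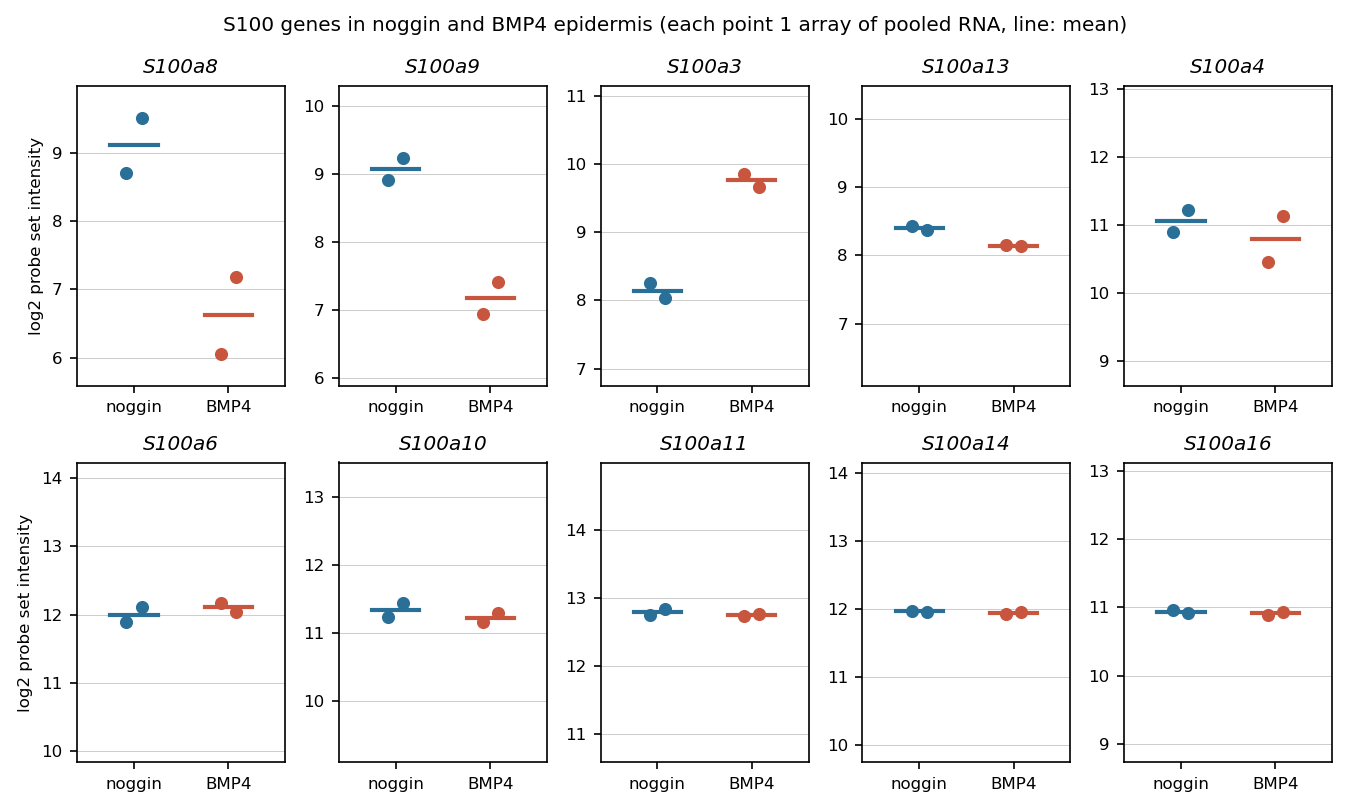
Log2 probe set intensity of the 10 S100 genes on each array, with noggin arrays at the left and BMP4 arrays at the right of each panel; points are arrays, lines are group means, and all panels span the same number of log2 units. S100a8 and S100a9 sit higher in noggin (means 9.11 and 9.07, against 6.62 and 7.18 in BMP4), S100a3 sits lower (8.14 against 9.76), and the other genes are nearly level.

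S100a8, the smaller calprotectin subunit (probe set 10493831, chr3:90669071-90670034 in GRCm38.p6), had log2 values of 8.71 and 9.51 in noggin epidermis, against 6.06 and 7.18 in BMP4 epidermis. Both noggin arrays were above both BMP4 arrays, and the nearest arrays of the groups were 1.53 log2 units apart, more than the 0.80 between the noggin arrays and the 1.13 between the BMP4 arrays. The means were 9.11 ± 0.57 in noggin and 6.62 ± 0.80 in BMP4 (SD, n = 2 each), a 5.62-fold ratio and a difference of 2.49 (95% interval 1.14 to 3.84; limma, adjusted p = 0.737). It was the highest noggin minus BMP4 difference of the 19938 named genes. Because its arrays also varied within each line, S100a8 ranked 99 by p.

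S100a9, the larger subunit (probe set 10499861, chr3:90692630-90695721), had log2 values of 8.92 and 9.23 in noggin and 6.95 and 7.42 in BMP4. The groups did not overlap, and their nearest arrays were 1.50 apart, with 0.31 between the noggin arrays and 0.46 between the BMP4 arrays. The difference was 1.89 (95% interval 1.30 to 2.47), a 3.70-fold ratio (limma, adjusted p = 0.636). S100a9 ranked 6 by p and 6 by the height of its difference among named genes. The order of the 4 arrays was the same for both subunits, with noggin replicate 2 highest and BMP4 replicate 1 lowest. Without BMP4 replicate 1, the array that stood apart, the difference was 1.93 for S100a8 and 1.66 for S100a9.

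The calprotectin genes lie 22.6 kb apart on opposite strands. Their promoters are shown because both genes were higher in the same arrays. Each run is RefSeq's sequence in GRCm38.p6, 5′ to 3′ on the gene's own strand, with 250 bases before the listed transcription start and the 30 bases from it. Capitals mark the letters TATAAA, the core of a TATA box. S100a8 is chr3:90668821-90669100 on the plus strand and S100a9 is chr3:90695692-90695971 on the minus strand.
S100a8: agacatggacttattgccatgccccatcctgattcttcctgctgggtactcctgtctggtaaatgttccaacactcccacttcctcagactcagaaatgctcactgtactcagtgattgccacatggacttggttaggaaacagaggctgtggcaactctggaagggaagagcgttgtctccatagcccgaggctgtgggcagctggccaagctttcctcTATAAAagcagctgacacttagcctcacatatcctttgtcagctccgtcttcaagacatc
S100a9: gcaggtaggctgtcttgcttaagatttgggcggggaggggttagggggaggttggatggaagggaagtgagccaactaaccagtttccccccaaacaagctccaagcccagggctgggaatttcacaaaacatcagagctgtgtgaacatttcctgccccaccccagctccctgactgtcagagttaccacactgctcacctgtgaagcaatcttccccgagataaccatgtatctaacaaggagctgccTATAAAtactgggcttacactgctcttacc

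The TATAAA letters began at base 221 of the S100a8 window and at base 251, the listed start itself, of the S100a9 window. Searched on both strands, TATAAA occurred in 13.1% of the 32851 promoter windows of this length in the RefSeq table and in at least 1 window of 4 of the 8 members listed there, S100a3, S100a4, S100a8 and S100a9. The letters CAGAC, a core bound by SMAD proteins, occurred at bases 86 to 90 of the S100a8 window on the plus strand and at bases 54 to 58 on the minus strand, and in 46.8% of all windows. They were not in the S100a9 window. TTGCNNAA, a core of C/EBP sites, was at bases 15 to 22 of the S100a9 window and in 10.4% of all windows. Neither printed window held GGCGCC, a GC-rich SMAD element found in 10.9% of windows, or TGANTCA, an AP-1 site found in 7.46%. These matches describe letters in the windows and bear on no factor's binding.

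Markers of neutrophils, which carry calprotectin in bulk, had similar means in both lines. Of 15 listed markers 13 had a value, 8 with a higher and 5 with a lower mean in noggin, and their median difference was 0.02 (-0.0018 to 0.01 on leaving out 1 array), against -0.0064 over all named genes. Their summed intensity was 807 and 964 in noggin and 870 and 804 in BMP4. Ly6g, a surface antigen that defines mouse neutrophils, had log2 values of 3.88 and 3.85 in noggin and 3.99 and 3.85 in BMP4, below the lower quartile of every array (4.71 to 4.72), and 4 of the 13 markers lay below that quartile on all arrays. Retnlg, a neutrophil granule gene, differed by 0.12 and Mmp9, a gelatinase, by -0.14 (limma, adjusted p = 0.951 and 0.940). The exception in level was Cxcr2, a chemokine receptor of neutrophils, which was bright at 8.71 and 9.15 in noggin and 8.89 and 8.70 in BMP4, above the upper quartile of every array (7.66 to 7.71) and with overlapping groups. The part of neutrophils in the S100a8 and S100a9 differences was not tested.

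In noggin, macrophage and Langerhans cell markers had higher means, as calprotectin did. All 12 averaged higher in noggin, 8 of them without overlap of the groups (15.7% of named genes lay that way), and their median difference was 0.62. Their summed intensity was 3188 and 3352 in noggin and 1444 and 2697 in BMP4, so BMP4 replicate 1 was the lowest array for these markers as it was for S100a8 and S100a9. Cd207, the langerin of Langerhans cells, had log2 values of 7.21 and 7.28 in noggin and 6.48 and 6.86 in BMP4, and Itgax differed by 0.48. The groups overlapped for H2-Ab1, Adgre1, Cd68 and Cd163, which differed by 0.67, 0.28, 0.10 and 0.06. For Adgre1 and Cd163, BMP4 replicate 2 lay above both noggin arrays. Leaving out BMP4 replicate 1 gave the 12 markers a median difference of 0.23, and leaving out BMP4 replicate 2 gave 0.95. T cell markers also averaged higher in noggin in 7 of 7 genes, by a median of 0.24 (0.13 without BMP4 replicate 1 and 0.48 without noggin replicate 1), and had a summed intensity of 1148 and 1459 in noggin and 829 and 1179 in BMP4. The groups did not overlap in 1 of these 7 (15.7% of named genes lay that way), Cd3g, a T cell receptor chain, which differed by 0.80. Ptprc, the leukocyte antigen CD45, differed by 0.84 with overlapping groups. The remaining T cell markers also overlapped, with differences from 0.03 at Cd7 to 0.37 at Cd2. Skeletal muscle markers were another list with higher means in noggin, in 10 of 11 genes and by a median of 0.79, although the groups overlapped for each of the 11. Their summed intensity was 9162 and 4715 in noggin and 2530 and 5985 in BMP4, with BMP4 replicate 1 again lowest, and the median difference on leaving out 1 array ran from 0.13 (that array) and 0.22 (noggin replicate 1) up to 1.29 (noggin replicate 2) and 1.30 (BMP4 replicate 2). Acta1, skeletal muscle actin, had log2 values of 9.43 and 8.73 in noggin and 7.12 and 8.87 in BMP4, and Myh1, a fast myosin heavy chain, differed by 0.85. The part of immune and muscle cells in the S100a8 and S100a9 differences was not tested.

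Other cell types showed smaller list medians. Of 6 endothelial markers, 5 averaged higher in noggin. Their median difference was 0.14, which leaving out noggin replicate 1 brought to 0.02 and leaving out BMP4 replicate 1 to 0.05. Kdr, a VEGF receptor, differed by 0.16 and Pecam1, a junction protein of endothelium, by 0.33. Glial and melanocyte markers were higher by mean in 5 of 8 genes with a median of 0.05 (-0.03 without BMP4 replicate 1, 0.11 without noggin replicate 1), and the pigment cell genes Pmel and Tyrp1 differed by 0.23 and 0.15. Sweat gland markers were higher in 4 of 8 with a median of 0.02 (-0.06 to 0.04 on leaving out 1 array), where Krt7, a keratin of simple and glandular epithelia, differed by -0.31 and Aqp5, a water channel of secretory cells, by 0.23. None of these genes passed the threshold.

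**Figure D2:**
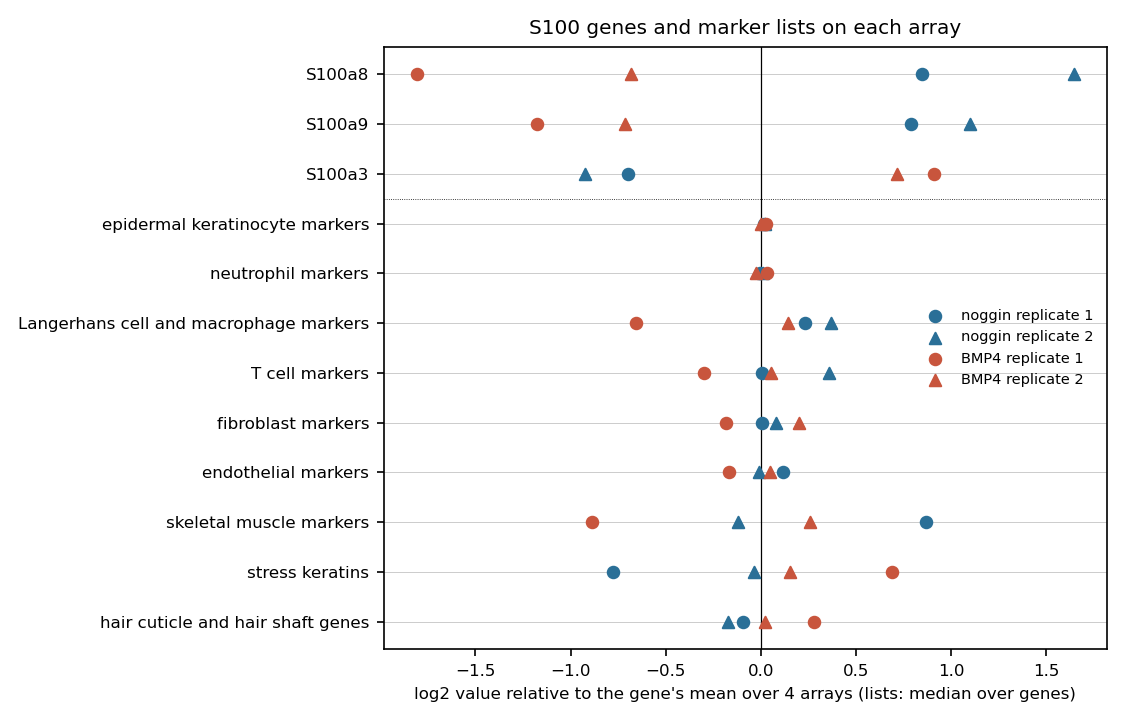
Log2 value on each array relative to the mean over the 4 arrays, for S100a8, S100a9 and S100a3 and, below the dotted line, as the median over the genes of 9 marker lists; circles are replicate 1 and triangles replicate 2, in blue for noggin and red for BMP4. Keratinocyte and neutrophil markers cluster at 0 on all arrays, and Langerhans cell and macrophage, T cell and skeletal muscle markers are lowest in BMP4 replicate 1. The hair list is lower in noggin, as S100a3 is, but its median is 0.28 in BMP4 replicate 1 and only 0.02 in BMP4 replicate 2.

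Signals and receptors around calprotectin were mostly level. Of 15 measured cytokines, receptors and transcription factors that act upstream of it in keratinocytes, 12 averaged higher in noggin. The noggin arrays lay wholly above in 3 of the 15 (15.7% of named genes lay that way) and wholly below in 1 (17.9%). The median difference was 0.06 (0.09 without BMP4 replicate 2). Il1a, an epidermal interleukin-1 whose release involves S100a13, had log2 values of 9.07 and 9.38 in noggin and 8.33 and 8.77 in BMP4, which differ by 0.68 (95% interval 0.12 to 1.24; limma, adjusted p = 0.852). Il22ra1, a chain of the interleukin-22 receptor, differed by 0.35 with overlapping groups. Of 9 receptor genes for secreted S100 proteins, 3 had a higher and 6 a lower mean in noggin. Ly96, the TLR4 co-receptor MD-2, was at 5.19 and 6.51 in noggin and 7.37 and 6.66 in BMP4, so both noggin arrays were lower, and Alcam, an adhesion molecule, was at 7.73 and 7.69 in noggin and 6.75 and 7.51 in BMP4 (limma, adjusted p = 0.913 and 0.926). Neither list held a gene past the adjusted threshold. At an unadjusted p below 0.05 limma gave Il1a alone, against 4.28% of named genes.

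Other antimicrobial and acute-phase genes of keratinocytes did not follow calprotectin as a group. Of 14 measured, 9 had a higher and 5 a lower mean in noggin. The noggin arrays lay wholly above in 5 (15.7% of named genes lay that way) and wholly below in 3 (17.9%). The median difference was 0.18, which leaving out noggin replicate 2 brought to 0.02 and leaving out BMP4 replicate 1 to 0.11. Chil1, a chitinase-like protein, differed by 2.22 and Saa1, an acute-phase apolipoprotein, by 1.40 (limma, adjusted p = 0.636 for both). Saa1 was dim in BMP4, at 3.99 and 4.04, below the lower quartile of those arrays (4.72 and 4.71). The list ran from -2.55 at Defb4, a defensin gene, to 2.22 at Chil1. Defb4 was at 4.38 and 4.08 in noggin and 8.75 and 4.83 in BMP4, so it was high in BMP4 replicate 1 alone.

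S100a3, the hair cuticle protein (probe set 10493803, chr3:90560356-90602706), went the other way. Its log2 values were 8.25 and 8.03 in noggin and 9.86 and 9.67 in BMP4. Both noggin arrays were below both BMP4 arrays, with 1.41 between the nearest arrays of the groups and only 0.23 between the noggin arrays and 0.19 between the BMP4 arrays. The means were 8.14 ± 0.16 in noggin and 9.76 ± 0.14 in BMP4 (SD, n = 2 each), a difference of -1.62 (95% interval -1.99 to -1.25), so that BMP4 was 3.08-fold higher (limma, adjusted p = 0.451). S100a3 ranked 3 by p among named genes. On leaving out 1 array its difference ranged from -1.73 to -1.51.

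RefSeq lists 4 starts for S100a3, and the window of the one nearest the gene's end, chr3:90599964-90600243 on the plus strand, is shown beside the calprotectin windows because the gene differed in the opposite direction. It holds none of the 5 motifs searched, so no letters are in capitals; TATAAA and CAGAC occur in windows of its other starts.
S100a3: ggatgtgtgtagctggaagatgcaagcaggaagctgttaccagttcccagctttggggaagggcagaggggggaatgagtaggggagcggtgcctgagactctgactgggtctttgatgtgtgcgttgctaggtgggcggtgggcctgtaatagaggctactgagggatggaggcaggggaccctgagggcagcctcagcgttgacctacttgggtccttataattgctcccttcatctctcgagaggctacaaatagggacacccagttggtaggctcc

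Hair shaft and cuticle genes were also lower in noggin by their means. All 14 measured genes of that list averaged lower in noggin, 9 without overlap of the groups (17.9% of named genes lay that way), and the median difference was -0.18, or -0.40 without BMP4 replicate 2. Their summed intensity was 1116 and 1023 in noggin and 4557 and 1608 in BMP4. Krt84, a hair-type keratin, was the brightest of the list in both BMP4 arrays and weighs most in those sums. The sums therefore do not describe the list as a whole. Krt84 had log2 values of 5.47 and 5.71 in noggin and 11.60 and 9.09 in BMP4. Its BMP4 arrays were 2.51 apart where those of S100a3 were 0.19 apart. Msx2, a homeobox gene of the hair matrix, differed by -0.78. Among the 9 genes without overlap, the nearest arrays were 3.38 apart for Krt84, 0.25 for Msx2 and 0.17 for Krt32. The gaps were only 0.074 for Foxn1, 0.054 for Krt86, 0.051 for Krt40, 0.021 for Krt31, 0.017 for Krt34 and 0.0058 for Krt39. Much of the list was dim: Krt31, Krt32, Krt33a, Krt34, Krt35 and Krt40 lay below the median on every array (6.04 to 6.06). Keratins of the hair shaft varied in size of difference. Krt86 was at 4.65 and 4.49 in noggin and 6.64 and 4.70 in BMP4, and Krt39 at 4.91 and 4.92 in noggin and 6.10 and 4.93 in BMP4, both without overlap and both high in BMP4 replicate 1 alone. Krt32 was at 5.71 and 5.66 in noggin and 5.88 and 5.91 in BMP4, also without overlap, whereas Krt35 overlapped, at 5.76 and 5.64 in noggin and 5.73 and 5.73 in BMP4. Padi3, the deiminase that modifies S100A3 protein in hair, had 5.98 and 5.75 in noggin and 5.81 and 6.03 in BMP4, and Padi4 differed by -0.07. Stress keratins averaged lower in noggin in 4 of 4 genes, the opposite direction to S100a8 and S100a9. Krt6a differed by -1.82 and Krt16 by -0.56. The noggin arrays lay wholly below in 3 of the 4 (17.9% of named genes lay that way), and Krt17 overlapped. For Krt6b the nearest arrays were 0.17 apart, with 1.22 between the noggin arrays. The median difference was -0.84, or from -1.24 to -0.44 on leaving out 1 array. The part of hair follicle or nail tissue in the S100a3 value was not tested.

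**Figure D3:**
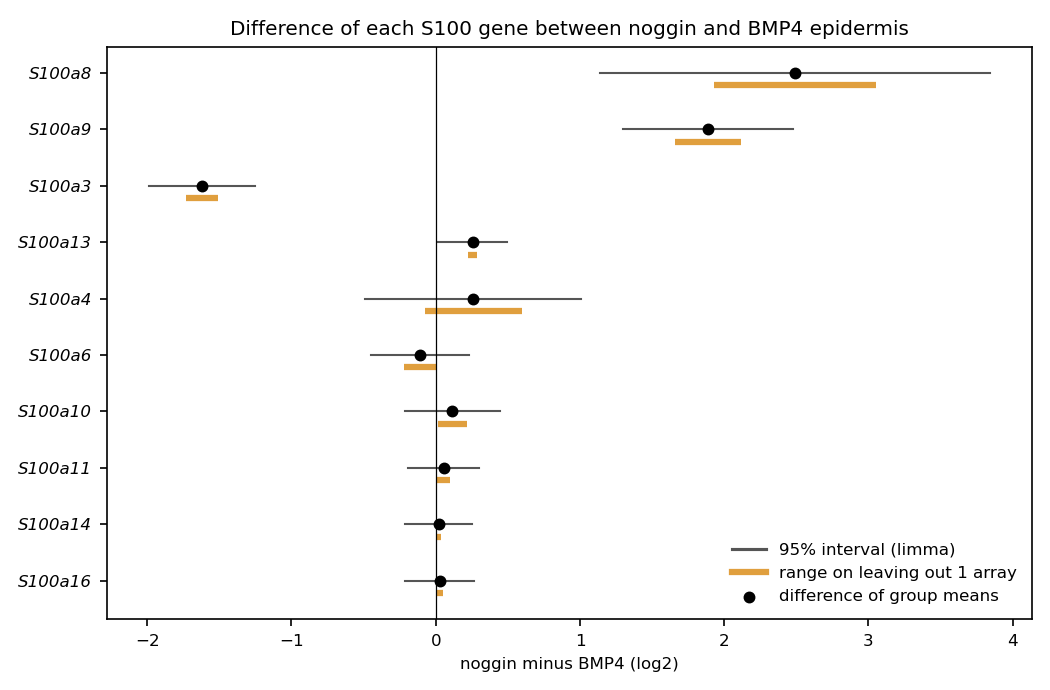
Noggin minus BMP4 difference in log2 units for each S100 gene; points are differences of group means, grey lines are limma's 95% intervals, and orange bars are the ranges on leaving out 1 array at a time. The intervals of S100a8, S100a9, S100a3 and S100a13 lie on one side of 0, and the orange bars of S100a4 and S100a6 cross 0.

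S100a13, which takes part in the non-classical release of FGF1 and interleukin-1α, differed little between the lines, with little spread between pools. Its log2 values were 8.43 and 8.37 in noggin and 8.15 and 8.14 in BMP4. The groups did not overlap, although the nearest arrays were only 0.22 apart. The difference was 0.26 (95% interval 0.016 to 0.49; limma, adjusted p = 0.874). Fgf1 was dim, with log2 values of 5.06 and 5.10 in noggin and 4.99 and 4.83 in BMP4, below the median of every array (6.04 to 6.06). Its nearest arrays were only 0.08 apart, and its difference was 0.18 (95% interval -0.10 to 0.46, limma, adjusted p = 0.939). Like Il1a above, Fgf1 was higher in each noggin array than in either BMP4 array, as were 15.7% of named genes.

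S100a4, a motility protein that binds non-muscle myosin and is also abundant in fibroblasts and leukocytes, varied more between pools than between lines. It had 10.90 and 11.22 in noggin and 10.46 and 11.13 in BMP4, a difference of 0.26 (95% interval -0.49 to 1.01; limma, adjusted p = 0.967). Only BMP4 replicate 1 stood off, and without it the difference was -0.0748, the opposite sign. The same array was lowest for Vim, a mesenchymal and leukocyte filament gene, which had 10.88 and 11.13 in noggin and 10.27 and 11.02 in BMP4. It was also lowest for the summed fibroblast markers, at 5886 and 6013 in noggin and 4561 and 6792 in BMP4, while Pdgfra, a fibroblast receptor, differed by 0.09. The median difference of the fibroblast markers was 0.04, or -0.20 without that array. The part of these cells in the S100a4 value was not tested.

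S100a6, or calcyclin, had 11.89 and 12.11 in noggin and 12.17 and 12.04 in BMP4. The groups overlapped, with a difference of -0.11 and a 95% interval from -0.45 to 0.23. Its partner Cacybp was level, at 10.12 and 10.18 in noggin and 10.14 and 10.18 in BMP4. S100a10, the p11 light chain of annexin A2, had 11.24 and 11.44 in noggin and 11.16 and 11.29 in BMP4, and its difference of 0.12 had a 95% interval from -0.21 to 0.44. The annexin A2 gene Anxa2 had 11.11 and 11.41 in noggin and 11.33 and 11.26 in BMP4, with overlapping groups as well.

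S100a11, a partner of annexin A1, had 12.75 and 12.84 in noggin and 12.73 and 12.76 in BMP4, a difference of 0.055. A second probe set annotated to S100a11, 10457640, gave 12.52 and 12.61 in noggin and 12.48 and 12.52 in BMP4, a difference of 0.06. RefSeq also lists an S100a11 pseudogene, and probes shared with such a copy would mix their values. Anxa1 itself was at 11.49 and 11.71 in noggin and 11.42 and 11.37 in BMP4 (difference 0.21, limma, adjusted p = 0.938). Of 10 measured intracellular partners, 7 had a higher and 3 a lower mean in noggin. Their median difference was 0.11, but 0.0045 without BMP4 replicate 1.

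S100a14 and S100a16, both family members of epithelia, were close to constant. S100a14 had 11.97 and 11.96 in noggin and 11.93 and 11.96 in BMP4. Its groups formally did not overlap, but the nearest arrays were only 0.0020 apart. S100a16 had 10.96 and 10.91 in noggin and 10.89 and 10.93 in BMP4, with overlapping groups. For S100a11, S100a14 and S100a16 the far ends of the 95% intervals corresponded to ratios of 1.23, 1.19 and 1.20. These ratios bound the difference in probe set intensity under limma's estimate of the spread, and how they translate to RNA amounts was not tested.

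Of 9 other listed S100 genes, 7 had a value, and none passed the threshold. S100a2, whose annotated span (chr3:90590247-90591508) lies within that of S100a3, was likewise lower in each noggin array, with 6.64 and 6.67 in noggin and 7.14 and 6.94 in BMP4 (difference -0.38, limma, adjusted p = 0.848). Whether probes of these overlapping genes share signal was not tested. S100a7a, the mouse psoriasin relative, was at 5.93 and 5.85 in noggin and 6.21 and 5.97 in BMP4, again with both noggin arrays lower. It lies between S100a6 and S100a8, yet its difference was -0.20. S100b, a marker of Schwann cells, melanocytes and some dendritic cells, was high only in noggin replicate 1, at 6.62 against 5.72 in the other noggin array and 5.81 and 5.83 in BMP4. S100a1, S100a5, S100g and S100z overlapped between the groups, with differences from -0.07 to 0.08.

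Along chromosome 3 the members do not differ as a block. The 12 S100 genes with a value from S100a1 to S100a9 occupy 185 kb, and their differences ran from -1.62 at S100a3 to 2.49 at S100a8, with a median of 0.05. The end of S100a3 and the start of S100a8 are 66.4 kb apart, and S100a4, S100a5, S100a6 and S100a7a between them differed by at most 0.26. The 48 named genes between S100a9 and S100a11 hold the cornified envelope families. Of these, 40 averaged higher in noggin, as did 9538 of 19938 named genes, and the median difference was 0.17. The noggin arrays lay wholly above in 22 of the 48 (15.7% of named genes lay that way) and wholly below in 1 (17.9%). Sprr2d, a small proline-rich gene there, had log2 values of 11.60 and 11.38 in noggin and 8.46 and 10.57 in BMP4. Its difference of 1.98 (95% interval -0.08 to 4.03) was smaller than the 2.11 between its BMP4 arrays. Families of close copies can also share probes. This region was chosen after the values were seen.

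The S100-fused proteins of the same region, large cornification proteins that begin with an S100 domain, had 5 of 6 measured genes higher by mean in noggin and a median difference of 0.26. Rptn, or repetin, was at 10.47 and 11.10 in noggin and 9.99 and 10.16 in BMP4 (difference 0.71, limma, adjusted p = 0.874). Flg2, a filaggrin relative, was at 9.69 and 10.53 in noggin and 8.50 and 9.76 in BMP4, with overlapping groups. It was lowest in BMP4 replicate 1, and leaving that array out gave the S100-fused genes a median difference of 0.15.

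**Figure D4:**
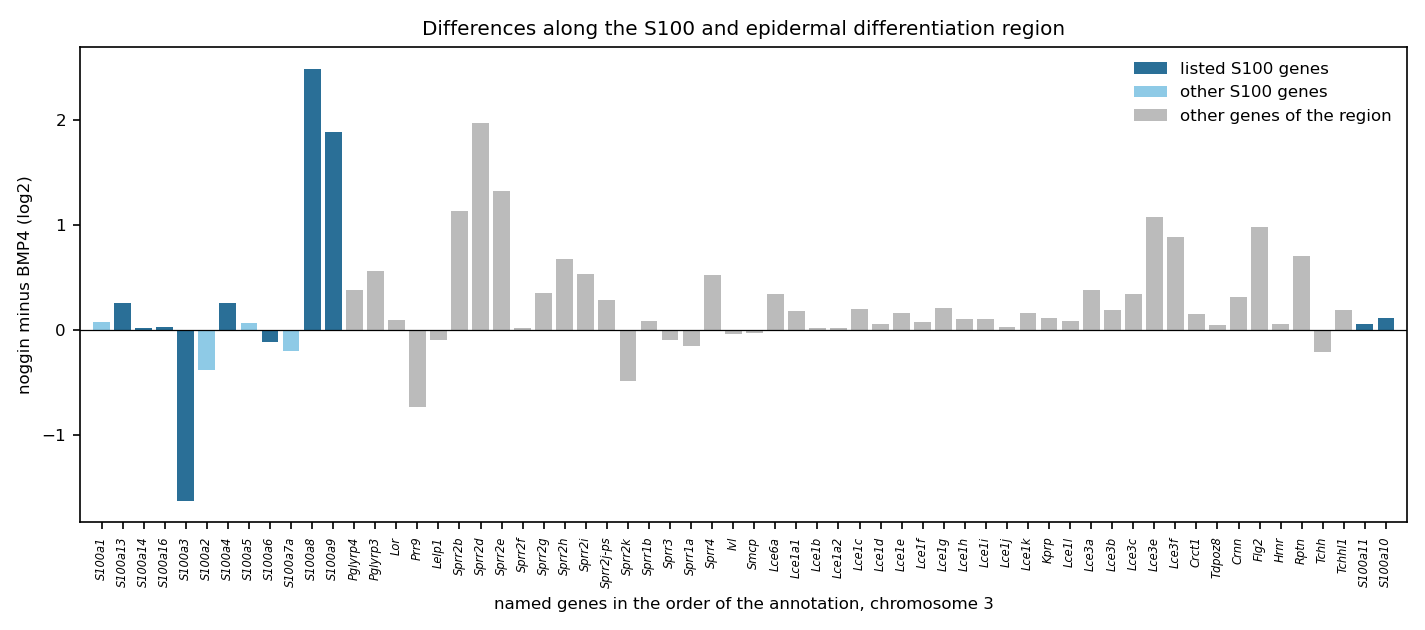
Noggin minus BMP4 difference in log2 units of the 62 named genes from S100a1 to S100a10, in the order of the GRCm38.p6 annotation and not to distance; dark blue bars are the listed S100 genes, light blue bars other S100 genes and grey bars other genes. S100a3 at -1.62 and S100a8 and S100a9 at 2.49 and 1.89 lie far from the S100 genes between them. The grey bar of Sprr2d reaches 1.98, with 2.11 between its BMP4 arrays.

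The genes whose values over the 4 arrays were most like those of S100a9 were Cxcl9, Chil1 and Rgs2, at Euclidean distances of 0.30, 0.35 and 0.41 log2 units between mean-centred values. The same 3 were nearest to S100a8, in the order Chil1, Cxcl9 and Rgs2, at 0.55, 1.08 and 1.10, while S100a8 and S100a9 were 0.84 apart. Nearest to S100a3 were Rps27l, Slc38a4 and Ifi202b, at 0.50, 0.50 and 0.51. The search covered 18692 genes outside the family, and likeness over 4 arrays is a description only.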

How the data were processed

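Biotin-labelled RNA, amplified by the NuGEN pico protocol per the labels' protocols, was hybridised to 4 whole-transcript arrays. The deposited log2 values, 1 per probe set, were made by the authors with Affymetrix Expression Console and RMA, per the submitters' processing notes; versions and settings are not given in the sources used here. RMA quantile-normalizes arrays, which hides a difference in overall signal, and it compresses dim probe sets. Scanner files were not used, detection above background is unknown, and the number of arrays limits the precision. The platform table gave 1 symbol to 21789 of 35556 probe sets and several to 1621. Positions, promoters and current symbols are RefSeq's for GRCm38.p6.

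All probe sets were fitted with limma 3.58.1 in R 4.3.3 (two-sided, with group alone in the model; residual degrees of freedom 2, prior 2.08), with Benjamini-Hochberg adjustment over all of them and a threshold of 0.05. The code was tested on simulated data. Named were all members, the other measured S100 genes, from each of the other 17 lists up to 2 genes by smallest p, and the 3 genes most like S100a3, S100a8 and S100a9; further genes were chosen after their values were seen. Members and lists were chosen with earlier results of these data known. Python 3.11.15 and matplotlib 3.10.9 drew the figures.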

Additional observations from a re-analysis of the deposited data

How the results depend on the processing

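Under each alternative run, limma called 0 of the 10 S100 genes and 0 probe sets. Those run were a replicate block, a trended and robust prior, omission of dim probe sets, cyclic loess, median centring, averaging a gene's probe sets and leaving out each array. Of those that kept all 4 arrays and all probe sets, limma gave between 1736 and 2035 of 35556 probe sets at an unadjusted p below 0.05. Omission of dim probe sets gave 1123 of 17778, and averaging a gene's probe sets gave 1163 of 19938 genes. With the replicate block the difference of S100a8 stayed 2.49, that of S100a9 1.89 and that of S100a3 -1.62 (limma, adjusted p = 0.948 for each). Arrays with the same number were not paired in the main fit. Their deviations from the group mean correlated at -0.119, which cannot settle whether the pools were handled in pairs. A crossed block, added after seeing the data, called 0 probe sets. On leaving out 1 array the difference ranged from 1.93 to 3.05 for S100a8, from 1.66 to 2.12 for S100a9 and from -1.73 to -1.51 for S100a3. S100 genes whose groups do not overlap numbered 4 after cyclic loess or median centring and 5 to 10 on leaving out 1 array, with 10 without BMP4 replicate 2 and 8 without noggin replicate 1. With 1 array in a group fewer values can overlap. For these settings no share over all named genes was computed, so the counts are no result about the S100 genes. Small differences changed sign in 3 cases: S100a14 was -0.00173 after cyclic loess, S100a4 was -0.0748 without BMP4 replicate 1, in a range on leaving out 1 array up to 0.59, and S100a6 was 0.00395 without noggin replicate 1, in a range down to -0.22. The cause was not tested.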
